A study of Saccharomyces cerevisiae with 4 samples.

Results

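The genes described here encode 10 permeases of the yeast plasma membrane, 9 for amino acids and 1 for ammonium. They were chosen by name: BAP2 (YBR068C), BAP3 (YDR046C), AGP1 (YCL025C), GNP1 (YDR508C), TAT1 (YBR069C), TAT2 (YOL020W), DIP5 (YPL265W), GAP1 (YKR039W), PUT4 (YOR348C) and MEP2 (YNL142W). The choice was made with earlier results of these data known. All 10 were found among the 6706 reading frames listed for each library, and all 10 passed the filter on low counts.

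The study compared RNA from a budding yeast strain with the tRNA genes of chromosome III deleted (tDNA-less) with RNA from a wild-type strain, in 2 libraries per strain. Both are strains of the W-303 background, grown in the rich medium YPD to early log phase. The tDNA-less strain, JKY690, is labelled MATa with ade2-1, trp1-1 and ura3-1, with 9 numbered tDNA deletions on chromosome III, with LEU2 in place of t8 and t9, and with T1+T7::HIS3. The wild type, JRY2334, is labelled MATa with ade2-1, trp1-1 and ura3-1 too, and in addition with his3-11,15, leu2-3,112 and can1-100. By these labels the strains also differ in leucine and histidine markers and in can1-100, an allele of the arginine permease gene CAN1. Each genotype was represented by 1 strain. The loss of the tRNA genes and the other differences between these strains therefore cannot be told apart.

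Yeast takes up amino acids through a family of related proton symporters. Genes of the broad and branched-chain permeases are switched on when the membrane sensor SSY1, with PTR3 and SSY5, detects outside amino acids and releases the transcription factors STP1 and STP2. GAP1, PUT4 and MEP2 are instead known for nitrogen catabolite repression: a good nitrogen source keeps the GATA factors GLN3 and GAT1 from activating them. Strains that carry leu2 and trp1 mutations depend on uptake for leucine and tryptophan, and LEU3 is the transcription factor that activates genes of leucine synthesis in response to a pathway intermediate.

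The 9 amino acid permeases resemble one another in protein sequence. Translated from the R64 reference genome, their 36 pairs had identities of 30.5% to 73.5%, with a median of 42.1%. BAP2 and BAP3 were the closest pair at 73.5%, followed by AGP1 and GNP1 at 68.1%. Their coding sequences were compared by 31-base words with the 6010 listed reading frames found in R64. In that search 8 of the 10 members, MEP2 included, shared no word with another reading frame. AGP1 and GNP1 shared 17 words with each other, 0.91% and 0.87% of their words. The other 696 listed reading frames were not searched. Estimated counts were whole in every library for all members but GNP1, whose counts were not whole in any of the 4, so some of its reads were divided with another listed reading frame.

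The promoters of the members were searched for the words that these regulators are known to bind, in the 600 bases before the start codon, on both strands. The stretches below, from the R64 reference and not from W-303, are examples that show the LEU3 palindrome, runs of GATA words, and STP words in 3 of the permease genes that did not pass the test. Each is written 5′ to 3′ on the strand of its gene. Capitals mark the LEU3 palindrome (CCGG, any pair of bases, CCGG) in BAP2, the GATA word GATAAG or its reverse complement in GAP1 and MEP2, and the STP word CGGCNC or its reverse complement in AGP1, TAT1 and BAP3.
BAP2, chrII:376042-376101, minus strand: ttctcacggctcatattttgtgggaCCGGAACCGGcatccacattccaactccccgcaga
GAP1, chrXI:514710-514779, plus strand: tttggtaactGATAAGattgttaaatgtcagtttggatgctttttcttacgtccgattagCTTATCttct
MEP2, chrXIV:356973-357022, plus strand: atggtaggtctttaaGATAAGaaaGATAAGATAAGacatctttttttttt
AGP1, chrIII:78430-78489, minus strand: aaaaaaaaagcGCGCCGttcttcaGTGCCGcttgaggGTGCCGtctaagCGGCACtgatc
TAT1, chrII:378812-378881, minus strand: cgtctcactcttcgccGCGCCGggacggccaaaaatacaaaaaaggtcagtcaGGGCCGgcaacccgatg
BAP3, chrIV:550926-550995, minus strand: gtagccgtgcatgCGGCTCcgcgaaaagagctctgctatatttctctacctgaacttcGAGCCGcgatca

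The LEU3 palindrome was found upstream of BAP2, 386 bases before its start codon, and of no other member; 0.33% of 5988 such windows in the genome held it. GATAAG occurred 7 times upstream of MEP2, 5 times upstream of GAP1 and 2 times upstream of AGP1, and not in the windows of the other members. Of all windows, 26.87% held at least 1 GATAAG, 0.12% held at least 5 and 0.02% held at least 7. Neighbouring copies can overlap by 1 base, as in the MEP2 stretch. CGGCNC occurred 5 times upstream of BAP2, 4 times upstream of AGP1 and 3 times upstream of TAT1. It was found 2 times each upstream of BAP3, GNP1 and GAP1 and once each upstream of TAT2 and DIP5, while the windows of MEP2 and PUT4 did not hold it. It was present in 26.74% of all windows, and 0.03% held at least 5 copies. The GCN4 word TGACTC, present in 15.31% of windows, was found upstream of BAP2 and AGP1, and the GCN4 palindrome TGANTCA, present in 14.21%, in no member. CGGC, the start of CGGCNC, was present in 75.33% of windows and was found in 10 members. GATTA, a word that is not part of GATAAG, was present in 72.75% and was found in 5 members. A match is a description of these letters and not evidence of binding.

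**Figure D1:**
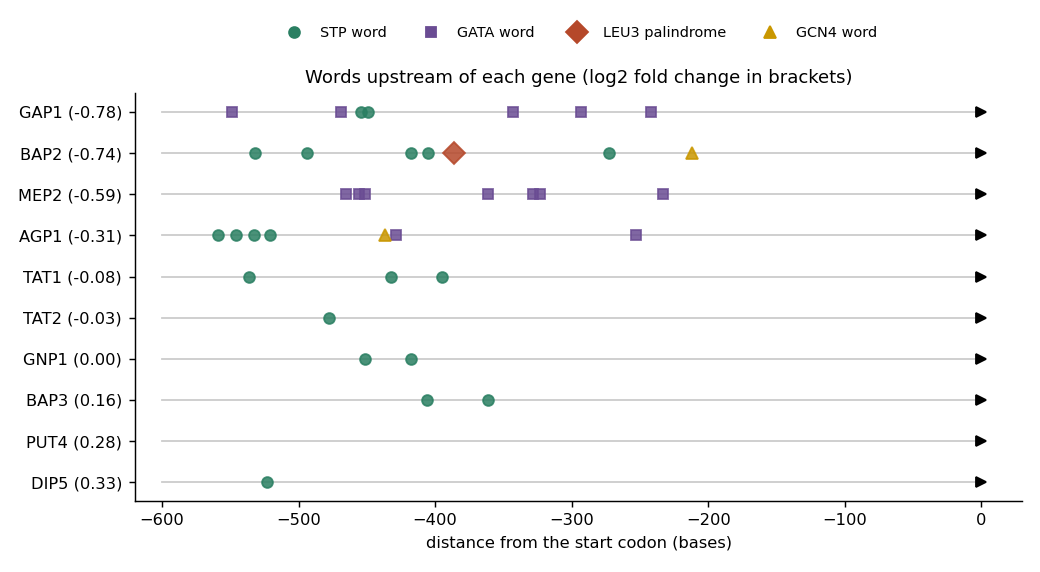
Positions of the STP word, the GATA word, the LEU3 palindrome and the GCN4 word in the 600 bases before the start codon (arrowhead) of each permease gene, with genes ordered by log2 fold change, tDNA-less over wild type, in brackets. GAP1 and MEP2 carry 5 and 7 GATA words, and the LEU3 palindrome appears upstream of BAP2.

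The tDNA-less libraries held 12.94 M and 14.46 M estimated counts (M, 1000000), and the wild-type libraries 12.48 M and 19.76 M, and the 10 members took between 12129 and 30788 of them per library. The 4 reading frames with the most counts (MSK1, LTO1, ATG7 and YSH1) had 45.09% and 36.07% of the counts in the tDNA-less libraries. In the wild-type libraries they had 39.56% and 30.63%. The source of these counts was not tested. Removing them from the library sizes left the edgeR member calls at 3. The TPM values below keep them in the library total. HIS3, inserted in the tDNA-less strain per the labels, had 403.5 and 461.6 CPM (counts per 1000000, with libraries scaled by TMM) in the tDNA-less strain and 12.4 and 8.50 CPM in the wild type. LEU2, inserted there too, ran the other way: it had 59.5 and 54.3 CPM in the tDNA-less strain and 110.4 and 135.6 CPM in the wild type, and reads of leu2-3,112 and LEU2 are counted together.

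Of the 10 permease genes, 3 were lower in the tDNA-less strain, 0 were higher and 7 did not pass the test. The 3 were GAP1, the general amino acid permease, BAP2, a permease of leucine, isoleucine and valine, and MEP2, the high-affinity ammonium permease that also acts as a sensor for filamentous growth. Their levels in the tDNA-less strain were between 0.582 and 0.665 of those in the wild type. Before adjustment 4 of the 10 were lower at p under 0.05, against 5.64% of all reading frames tested. DIP5 was higher at p under 0.05, which made 5 of the 10 in either direction, against 11.8% of all reading frames tested. Because the members were chosen with earlier results of these data known, their counts beside such shares are a description and not an independent test. Genes were called at an adjusted p under 0.05 in edgeR's quasi-likelihood test over 6205 reading frames, of which 0.693% were called lower and 0.806% higher. The median log2 fold change of the 10 members was -0.06, beside 0.00 over all reading frames tested. The libraries of the strains did not overlap for 7 members, 4 lower and 3 higher in the tDNA-less strain, against 20.8% of all reading frames lower and 22% higher. An exact permutation of 2 libraries against 2 cannot give a p below 0.333, so the p-values are those of the model, which borrows its estimate of spread from all genes. RNA is measured per culture, so fewer transcribing cells and less RNA per cell cannot be told apart.

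**Figure D2:**
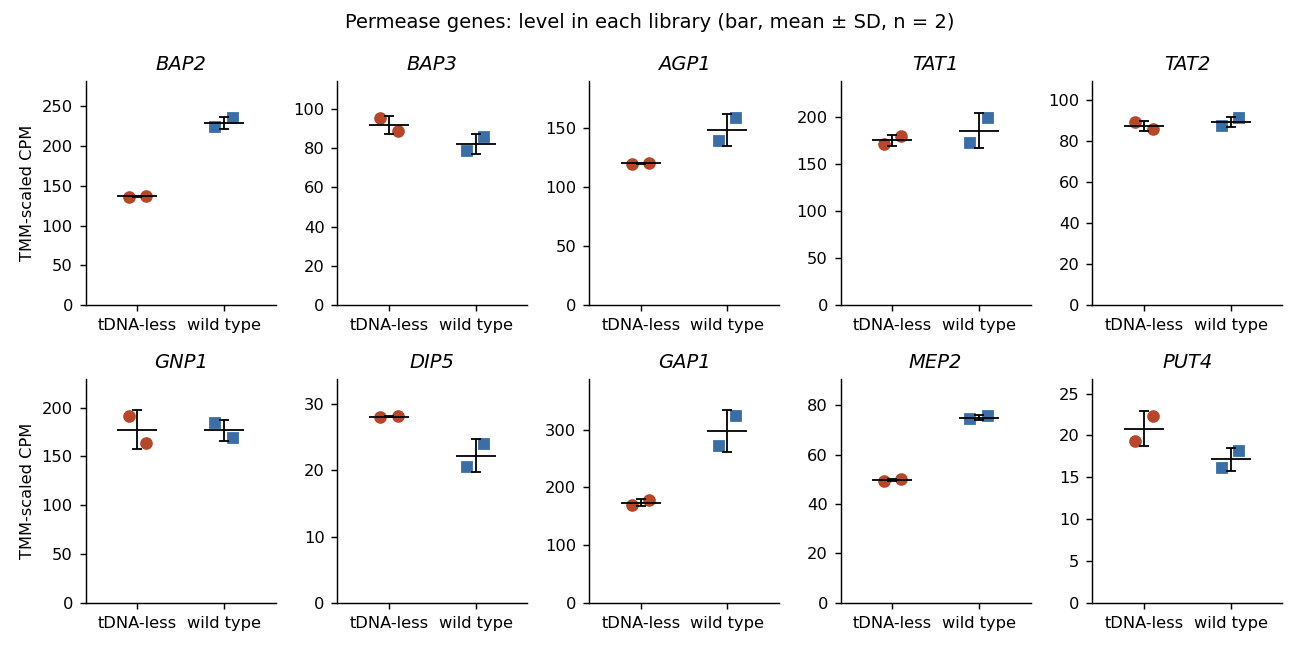
TMM-scaled CPM (vertical axis, from 0, with its own range in each panel) of the 10 permease genes in the 2 tDNA-less libraries (circles) and the 2 wild-type libraries (squares), with mean ± SD (n = 2). The strains separate widely for BAP2, GAP1 and MEP2, whereas TAT1, TAT2 and GNP1 overlap.

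Among the permeases of branched-chain and other large neutral amino acids, leaving out the general permease GAP1, BAP2 passed the test and the others did not. BAP2 had 136.4 and 137.4 CPM in the tDNA-less libraries and 223.2 and 234.6 CPM in the wild-type libraries. Both tDNA-less values lay well below both wild-type values, and the libraries of a strain were close together. The log2 fold change was -0.74 ± 0.08 (SE; edgeR, adjusted p = 0.00111), which placed BAP2 at rank 20 among the 6205 reading frames by p. Leaving out either tDNA-less library ended the call, with almost the same fold change (log2 fold change -0.74 and adjusted p = 0.0683 without replicate 1, -0.75 and 0.0629 without replicate 2, both edgeR).

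BAP3, the closest relative of BAP2 and also a branched-chain permease, had 95.2 and 88.6 CPM in the tDNA-less libraries and 78.5 and 85.5 CPM in the wild-type libraries. Its tDNA-less values were both above the wild-type ones, but by little, and it did not pass (log2 fold change 0.16, 95% interval -0.03 to 0.36; edgeR, adjusted p = 0.51). Within a library, where scaling between libraries has no part, BAP2 stood to BAP3 at a TPM ratio of 1.42 and 1.54 in the tDNA-less strain and 2.82 and 2.72 in the wild type. TPM divides counts by effective length, which kallisto derives from the coding length, and by the library's total.

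TAT1, a permease of valine, leucine, isoleucine and tyrosine, lies next to BAP2 on chromosome II (chrII:376574-378433, BAP2 at chrII:373861-375690, both on the minus strand), with 883 bases between them that hold the BAP2 promoter. It had 170.9 and 179 CPM in the tDNA-less libraries and 172.1 and 198 CPM in the wild-type libraries. The groups overlapped, and the log2 fold change was -0.08 (95% interval -0.28 to 0.12; edgeR, adjusted p = 0.785). The ratio of BAP2 to TAT1 in TPM was 0.813 and 0.782 in the tDNA-less libraries and 1.32 and 1.21 in the wild-type libraries, so the order of the neighbouring genes was reversed between the strains.

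AGP1, a low-affinity permease of many amino acids including asparagine and glutamine, is the only member on chromosome III (chrIII:76018-77919, minus strand, 1 exon). In the reference the nearest of the 10 tRNA genes of that chromosome lies 4.5 kb away. AGP1 had 119.9 and 120.7 CPM in the tDNA-less libraries and 139 and 158.3 CPM in the wild-type libraries. The groups did not overlap, yet AGP1 did not pass (log2 fold change -0.31, 95% interval -0.50 to -0.11; unadjusted p = 0.00627 and adjusted p = 0.169, edgeR). Non-overlap in this direction was common, at 20.8% of all reading frames tested. GNP1, its closest relative and a high-affinity glutamine permease, had 191.3 and 163.6 CPM in the tDNA-less libraries and 184.6 and 169.2 CPM in the wild-type libraries. The groups overlapped fully, with a log2 fold change of 0.00 (95% interval -0.21 to 0.22; edgeR, adjusted p = 0.991), an estimate whose sign turned in 4 of 13 alternatives.

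TAT2, the high-affinity permease of tryptophan and tyrosine, had 89.3 and 85.9 CPM in the tDNA-less libraries and 87.6 and 91.3 CPM in the wild-type libraries. Both strains carry trp1-1, and the 95% interval of the log2 fold change ran from -0.21 to 0.15 (edgeR, adjusted p = 0.932). In the reference TAT2 lies 242 bases from a tRNA gene of chromosome XV, outside the deleted set.

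DIP5, the permease of glutamate and aspartate, had 28.03 and 28.2 CPM in the tDNA-less libraries and 20.5 and 23.99 CPM in the wild-type libraries. Both tDNA-less libraries were higher, as for 22% of all reading frames tested, and DIP5 did not pass (log2 fold change 0.33, 95% interval 0.06 to 0.60; unadjusted p = 0.0235 and adjusted p = 0.297, edgeR).

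The members under nitrogen catabolite repression did not move together. GAP1, on chromosome XI (chrXI:515063-516871), had 169.1 and 177.3 CPM in the tDNA-less libraries and 271.5 and 323.3 CPM in the wild-type libraries. Even the lower wild-type library stood far above both tDNA-less libraries, and the wild-type libraries differed more from each other than the tDNA-less ones did. The log2 fold change was -0.78 ± 0.10 (SE; edgeR, adjusted p = 0.00314). The call was lost without tDNA-less replicate 1 (log2 fold change -0.75, adjusted p = 0.157) and without tDNA-less replicate 2 (-0.82, adjusted p = 0.113, both edgeR), and on the log2(TPM + 0.1) scale (limma, adjusted p = 0.0547). In the reference a tRNA gene of chromosome XI lies 1.1 kb from GAP1, outside the deleted set.

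MEP2, on chromosome XIV (chrXIV:357453-358952), had 49.4 and 50.2 CPM in the tDNA-less libraries and 74.3 and 75.6 CPM in the wild-type libraries. The libraries of each strain were nearly equal and the strains were clearly separated. The log2 fold change was -0.59 ± 0.08 (SE; edgeR, adjusted p = 0.00683), and the call was lost without tDNA-less replicate 1 (adjusted p = 0.181), without tDNA-less replicate 2 (adjusted p = 0.162, both edgeR) and on the log2(TPM + 1) and log2(TPM + 0.1) scales (limma, adjusted p = 0.0842 and 0.0917).

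The other ammonium permeases of yeast did not pass. MEP1 had a log2 fold change of 0.07 (95% interval -0.17 to 0.30) and MEP3 one of 0.13 (95% interval -0.10 to 0.36; edgeR, adjusted p = 0.866 and 0.69). Within a library, the TPM ratio of MEP2 to MEP1 was 1.19 and 1.05 in the tDNA-less strain and 1.69 and 1.82 in the wild type, and that of MEP2 to MEP3 was 0.748 and 0.702 in the tDNA-less strain and 1.08 and 1.30 in the wild type. Per length, MEP2 was therefore below MEP3 in the tDNA-less libraries and above it in the wild-type libraries.

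PUT4, the proline permease, had 19.3 and 22.3 CPM in the tDNA-less libraries and 16.1 and 18.1 CPM in the wild-type libraries. Its tDNA-less values were the higher ones and it did not pass (log2 fold change 0.28, 95% interval -0.04 to 0.59; edgeR, adjusted p = 0.486). GAP1 stood to PUT4 at a TPM ratio of 9.17 and 8.31 in the tDNA-less libraries and 17.6 and 18.7 in the wild-type libraries.

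**Figure D3:**
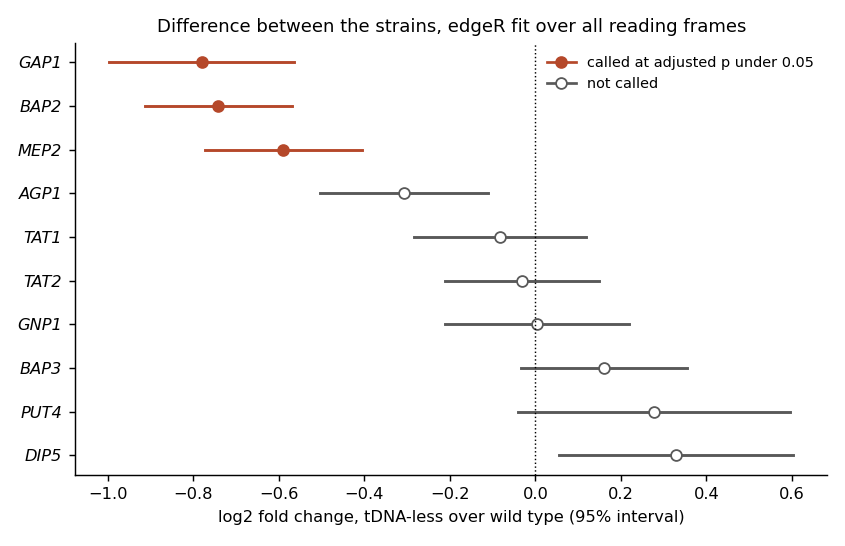
Log2 fold change of each permease gene, tDNA-less over wild type, with its 95% interval from the edgeR test. GAP1, BAP2 and MEP2 (filled) lie between -0.78 and -0.59 and are called, and the intervals of TAT1, TAT2, GNP1, BAP3 and PUT4 include 0.

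Levels between genes were compared per length, in TPM. GAP1 headed the order in both strains, with 69.2 ± 8.01 TPM in the tDNA-less strain and 130.9 ± 22.8 TPM in the wild type (SD, n = 2 here and below). TAT1 came second in the tDNA-less strain, with 67.8 ± 7.82 TPM, against 78.9 ± 11.9 TPM and the third place in the wild type. GNP1 followed it in each strain, with 63.3 ± 1.72 TPM in the tDNA-less strain and 69.7 ± 0.663 TPM in the wild type. In the tDNA-less libraries GAP1 overlapped with TAT1, and TAT1 with GNP1, so the top 3 were not separated there.

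BAP2 held the fourth place in the tDNA-less strain, with 53.9 ± 4.74 TPM, and the second in the wild type, with 99.3 ± 8.63 TPM. AGP1 held the fifth place in both, with 45.4 ± 3.97 TPM in the tDNA-less strain and 61.9 ± 8.88 TPM in the wild type. Neither overlapped with its neighbours in the order of either strain.

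BAP3 had 36.5 ± 1.17 TPM in the tDNA-less strain and 35.9 ± 4.03 TPM in the wild type, and TAT2 had 35.6 ± 1.96 TPM in the tDNA-less strain and 39.99 ± 3.23 TPM in the wild type. MEP2 stood below both in the tDNA-less strain, at 24.5 ± 2.22 TPM, and level with TAT2 in the wild type, at 40.5 ± 2.58 TPM. BAP3 overlapped with TAT2 in both strains, and TAT2 with MEP2 in the wild type. DIP5 and PUT4 came last in both strains, DIP5 with 11.1 ± 0.967 TPM in the tDNA-less strain and 9.68 ± 1.57 TPM in the wild type. PUT4 had 7.97 ± 1.47 TPM in the tDNA-less strain and 7.20 ± 0.963 TPM in the wild type.

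Summed over the 10 genes, the members had 393.6 and 436.8 TPM in the tDNA-less libraries and 528.8 and 619.2 TPM in the wild-type libraries. On this scale the median of all reading frames tested was itself lower in the tDNA-less strain, by a log2 difference of -0.11, and the difference in the sums includes that shift.

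Across the 4 libraries, the profiles of BAP2 and GAP1 were near each other. The Euclidean distance between their centred log2 CPM values was 0.138, and MEP2 lay 0.156 from BAP2 and 0.248 from GAP1, whereas PUT4 and DIP5 lay 1.03 and 1.09 from BAP2. Among 4972 other reading frames outside Ty retrotransposons whose log2 CPM averaged 3 or more, the same 3 were nearest to both. They were MET6, methionine synthase (distance 0.0597 from BAP2 and 0.081 from GAP1), MAE1, the mitochondrial malic enzyme (0.101 and 0.12), and ALD5, a mitochondrial aldehyde dehydrogenase (0.108 and 0.0735). These distances rest on 4 libraries in 2 groups and are given as a description.

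The genes that surround the permeases in their pathways were taken from 7 lists with 74 genes, all of which were tested. None of the 74 was called in either direction by edgeR or by limma-voom. In edgeR 5 were at an unadjusted p under 0.05, a smaller share than the 11.8% of all reading frames tested. DESeq2 gave an adjusted p for 72 of the 74 and called 1, GAT1, against 2.04% of all reading frames it tested. Their median log2 fold change was 0.04, beside 0.00 over all reading frames tested, with a range from -0.42 to 0.69.

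In the list of 18 other plasma membrane transporters of nitrogen compounds, 0 passed in edgeR, limma-voom or DESeq2, and 2 were at an unadjusted p under 0.05, near the share of 11.8% over all reading frames (median log2 fold change -0.03). CAN1, the arginine permease, for which the wild type is labelled can1-100, had 69.1 and 63.9 CPM in the tDNA-less libraries and 80.9 CPM in each wild-type library. The difference was small beside that of BAP2 and did not pass (log2 fold change -0.28; edgeR, adjusted p = 0.179). AGP2, a regulator of carnitine and polyamine uptake, had 8.73 and 6.78 CPM in the tDNA-less libraries and 5.43 and 4.25 CPM in the wild-type libraries (log2 fold change 0.69; edgeR, adjusted p = 0.333), and was named after its values were seen.

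Of the 12 genes of the sensor pathway, 0 were called and 0 had an unadjusted p under 0.05 in edgeR, and 0 passed in DESeq2 and limma-voom (median log2 fold change 0.05). The sensor SSY1 had 20.3 and 22.8 CPM in the tDNA-less libraries and 19.2 and 19.96 CPM in the wild-type libraries (edgeR, adjusted p = 0.739). STP1 had 68.5 and 75.3 CPM in the tDNA-less libraries and 72.7 and 74.8 CPM in the wild-type libraries. STP2 had 40.5 and 44.8 CPM in the tDNA-less libraries and 44.4 and 46.8 CPM in the wild-type libraries. The groups overlapped for both factors, whose activity is set by protein cleavage that RNA counts do not show.

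Of the 4 GATA factors and URE2, 0 passed in edgeR or limma-voom (median log2 fold change -0.04). DESeq2 called 1, against 2.04% of all reading frames it tested. In edgeR 2 were at an unadjusted p under 0.05, GAT1 lower and GLN3 higher, against 11.8% of all reading frames tested. The lowest fold change was that of GAT1, an activator, with 130.2 and 137.6 CPM in the tDNA-less libraries and 166.6 and 180.4 CPM in the wild-type libraries. Both tDNA-less libraries were lower, and GAT1 did not pass in edgeR (log2 fold change -0.37, 95% interval -0.56 to -0.19; adjusted p = 0.0693), while DESeq2 called it. GLN3, the other activator, had 35.96 and 30.2 CPM in the tDNA-less libraries and 28.9 and 25.1 CPM in the wild-type libraries (log2 fold change 0.30; edgeR, adjusted p = 0.39). DAL80, a repressor, had a low level and its groups overlapped, with 2.82 and 4.41 CPM in the tDNA-less libraries and 4.70 and 3.63 CPM in the wild-type libraries.

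Of 14 enzymes under nitrogen catabolite repression, 0 passed in edgeR, limma-voom or DESeq2. In edgeR, against 11.8% of all reading frames tested, 1 was at an unadjusted p under 0.05. It was DAL7, malate synthase of allantoin use (log2 fold change -0.30; edgeR, adjusted p = 0.308), named after its values were seen. The list median was 0.14, beside 0.00 over all reading frames tested.

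The 14 genes of permease folding, sorting and ubiquitination had a median log2 fold change of 0.03, the 6 vacuolar amino acid transporters one of -0.04, and 5 further regulators of transcription one of 0.09. In these 3 lists 0 genes passed in edgeR, limma-voom or DESeq2, and 0 were at an unadjusted p under 0.05 in edgeR. LEU3 had 44.2 and 41.1 CPM in the tDNA-less libraries and 50.2 and 46.7 CPM in the wild-type libraries (log2 fold change -0.18, 95% interval -0.40 to 0.03; edgeR, adjusted p = 0.503). GCN4, the activator of amino acid synthesis genes, had 463.4 and 450.7 CPM in the tDNA-less libraries and 413.9 and 399.9 CPM in the wild-type libraries (log2 fold change 0.17; edgeR, adjusted p = 0.425). GCN4 is known to be controlled mainly by translation, which these data do not measure.

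**Figure D4:**
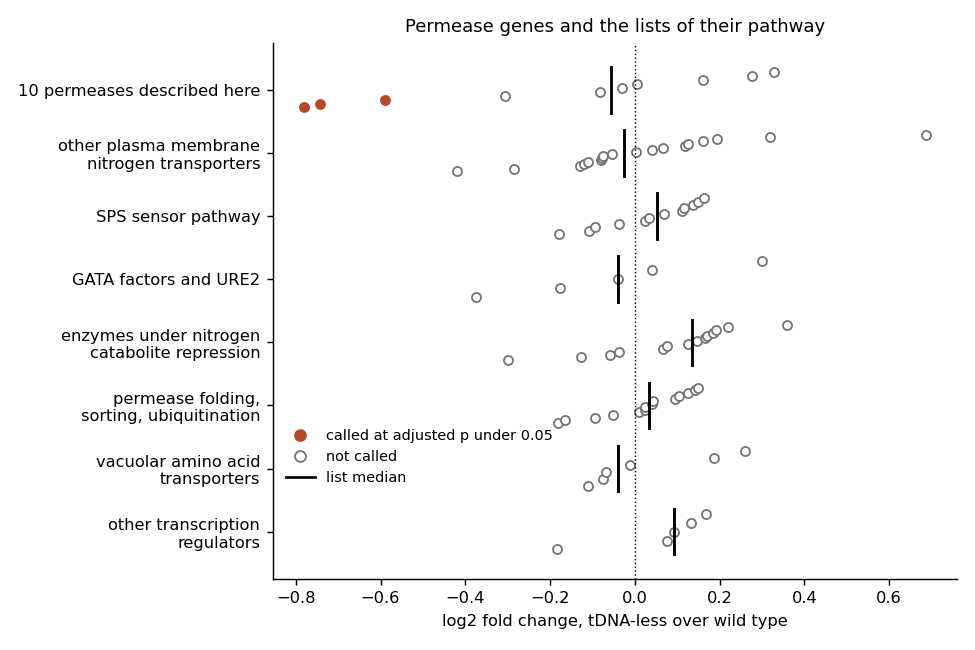
Log2 fold change, tDNA-less over wild type, of every gene in the 10 permeases and in 7 lists of their pathways (circles; filled where called by edgeR), with the list median as a black bar. The 3 called genes are permeases between -0.78 and -0.59, and the medians of the lists lie between -0.06 and 0.14.

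BAP2, GAP1 and MEP2 were lower in the tDNA-less strain in each of 13 alternatives, while their calls were lost without either tDNA-less library. Over all reading frames, too, far fewer calls remained without a tDNA-less library than without a wild-type library, so this pattern was not particular to the permeases. Leaving out wild-type replicate 1 or 2 kept all 3 calls, with log2 fold changes of -0.78 and -0.71 for BAP2, -0.91 and -0.65 for GAP1 and -0.61 and -0.58 for MEP2.

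**Figure D5:**
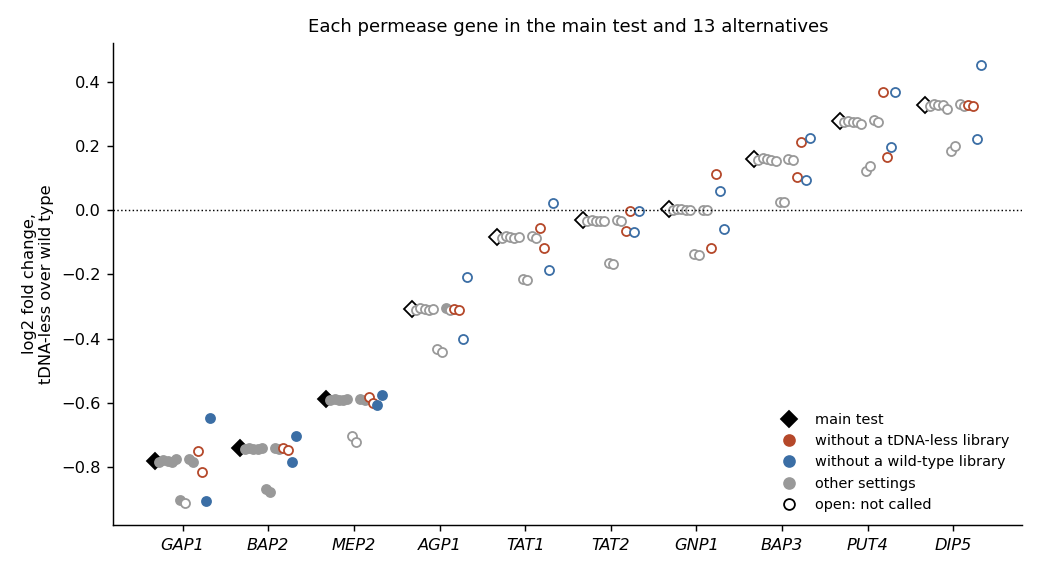
Log2 fold change, tDNA-less over wild type, of each permease gene in the main test (diamonds) and in 13 alternatives (circles), with filled symbols where the gene was called. GAP1, BAP2 and MEP2 stay between -0.91 and -0.58, and their circles are open where a tDNA-less library was left out, for MEP2 also on both TPM scales and for GAP1 on the log2(TPM + 0.1) scale.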

How the data were processed

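The 4 libraries hold total RNA, 2 biological replicates per strain per the labels, made with a directional kit. Each has a table of estimated counts and TPM per reading frame. Per the submitters' processing notes the authors used kallisto and sleuth with the build sacCer3; no kallisto version, index or strand setting is named there. Of the deposited estimated counts 17.3% to 17.5% per library were not whole, because reads that match several sequences are divided. The deposited TPM values divide the counts by effective length and give every library the same total.

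Estimated counts were rounded and filtered with filterByExpr (minimum 10), which kept 6205 reading frames. They were scaled by TMM and tested with edgeR 4.0.16 in R 4.3.3 (quasi-likelihood, Benjamini-Hochberg over all reading frames tested). SE was taken as the size of the log2 fold change over the root of F, and 95% intervals use the t quantile of the fit. The coefficient of variation was 9.8%. Replicates were not repeats of 1 library (chi-square per degree of freedom 43.7 in tDNA-less and 59.7 in wild type). The test was checked on simulated data. Alternatives used DESeq2 1.42.0 and limma 3.58.1 and are given in the closing section.

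Of the systematic names, 6010 had a coding sequence in the R64 reference, 99.7% of them of the same length, as had all 10 members. Proteins were aligned globally with Biopython 1.88 (BLOSUM62). The members and lists were chosen with earlier results of these data known. All members were named, with listed regulators, called genes of each list and the 3 nearest profiles to BAP2 and GAP1.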

Additional observations from a re-analysis of the deposited data

How the results depend on the processing

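Over 13 alternatives BAP2, GAP1 and MEP2 had a negative fold change in each (log2 fold change -0.88 to -0.71, -0.91 to -0.65 and -0.72 to -0.58), and their calls held in 11, 10 and 9. The number of members called was 3 in 8 of the alternatives. It was 2 on the log2(TPM + 1) scale, 1 on the log2(TPM + 0.1) scale and 4 with a replicate block, and it ran from 0 to 3 when 1 library was left out, 0 without either tDNA-less library. Over all reading frames 93 were called (50 higher, 43 lower), 52 on log2(TPM + 1) (17 higher, 35 lower), 39 on log2(TPM + 0.1) (11 higher, 28 lower), 282 with the block, and from 21 to 91 when 1 library was left out. A lone library left in a strain is assumed to vary like the other strain's pair. The replicate numbers are not said to pair cultures, and differences between replicates 1 and 2 correlated at 0.241 between the strains over reading frames; the block added AGP1 (edgeR, adjusted p = 0.0443), and GAT1 and CAN1 among the other lists. The sign turned for GNP1 on both TPM scales (-0.14 and -0.14) and when a library was left out (-0.12 to 0.11), and for TAT1 likewise (-0.19 to 0.023). With 2 libraries per strain, the test leans on the spread of all genes. The causes of these changes were not tested.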
